A study of Mus musculus with 24 samples.

Results

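This account covers 10 genes of the basement membrane in cultured mouse osteoblasts: the collagen IV chains Col4a1 and Col4a2, the laminin chains Lama1, Lama2, Lama4, Lamb1 and Lamc1, the nidogen Nid1, the hemicentin Hmcn1 and the peroxidasin Pxdn. They were taken by name, as the rows of the deposited count table whose Ensembl identifier carries one of these symbols. All 10 were found among the 54232 rows, and all 10 passed the filter on low counts that left 16592 genes for testing. The lowest count of any of them in any library was 67, for Hmcn1.

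Pooled calvariae, the flat bones of the skull roof, of newborn mice supplied the cells, which were wild type (WT) or of a genotype labelled HBM, the usual abbreviation for high bone mass. The labels name no allele for HBM and no agent besides the course of osteoblast differentiation that all groups shared. RNA was taken at days 0, 10, 15 and 21, and with batches 18, 19 and 21 once in each genotype and day there were 8 groups of 3 libraries, 24 in all, with total counts from 28039095 to 46987734. A calvarial culture is a mixed population and each culture pools several animals, so a value belongs to a pool and not to a mouse. The batch number was read as naming a culture sampled on each day, which the labels do not state outright.

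A basement membrane is a thin sheet of matrix that underlies epithelia and endothelia and surrounds muscle, fat, nerve and smooth muscle cells. Laminins, each a trimer of an alpha, a beta and a gamma chain, assemble at the cell surface on integrins and dystroglycan. Collagen IV trimers, most often made of Col4a1 and Col4a2 chains, form a second network, nidogens bridge it to laminin, and peroxidasin links collagen IV trimers to each other through sulfilimine bonds. Bone matrix itself is not a basement membrane.

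Col4a1 (ENSMUSG00000031502, chr8:11198423-11312826, minus strand) and Col4a2 (ENSMUSG00000031503, chr8:11312805-11449287, plus strand) lie head to head in GRCm38 (mm10), and their annotated 5′ ends overlap by 22 bases in GENCODE M21. That overlap is shown because the pair had the highest correlation of all pairs of members, given below. It is printed on the plus strand, with capitals for a GC box (GGGCGG or its reverse complement CCGCCC, the sequence bound by Sp1-type factors).
Col4a1 and Col4a2, chr8:11312805-11312826: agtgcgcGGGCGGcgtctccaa

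The stretches before the starts of Nid1, Hmcn1 and Pxdn follow, since these 3 genes, and Lama1, which the table lacks, were lower in HBM than in WT cultures of the same batch in all 9 comparisons from day 10 on. They come from the RefSeq promoter table (GRCm38.p6), read 5′ to 3′ on the gene's strand. Capitals mark GC boxes and CCAAT boxes (CCAAT or ATTGG, the site of NF-Y), searched on both strands. These motifs do not overlap each other here. The Nid1 stretch leaves out the last 51 bases of the 250-base window, which are exonic. The Pxdn window lies in an intron of the longer GENCODE gene model.
Nid1, chr13:13437352-13437550, plus strand: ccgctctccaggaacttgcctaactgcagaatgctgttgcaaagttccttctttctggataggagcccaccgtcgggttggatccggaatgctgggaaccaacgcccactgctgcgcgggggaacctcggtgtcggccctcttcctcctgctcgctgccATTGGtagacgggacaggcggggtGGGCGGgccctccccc
Hmcn1, chr1:150993436-150993685, minus strand: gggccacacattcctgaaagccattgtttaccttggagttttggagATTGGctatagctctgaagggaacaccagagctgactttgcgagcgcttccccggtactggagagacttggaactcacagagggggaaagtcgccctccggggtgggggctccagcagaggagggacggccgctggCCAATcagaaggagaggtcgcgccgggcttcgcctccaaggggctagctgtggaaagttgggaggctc
Pxdn, chr12:29937786-29938035, plus strand: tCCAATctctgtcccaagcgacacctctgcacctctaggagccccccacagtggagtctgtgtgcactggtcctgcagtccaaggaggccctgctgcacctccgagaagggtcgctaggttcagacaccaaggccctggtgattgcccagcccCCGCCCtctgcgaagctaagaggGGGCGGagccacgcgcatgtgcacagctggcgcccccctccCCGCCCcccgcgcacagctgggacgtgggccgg

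The table held 7 of the 10 members, with no entry for Lama1, Lama4 or Lamc1. A CCAAT box stood in the 250-base window of 6 of these 7, all except Lama2, against 33.8% of the 32851 promoters of the table. A GC box stood in 4 of the 7 (Col4a2, Lamb1, Nid1 and Pxdn), against 32.7%, and TATAAA or its reverse complement in 0 of the 7, against 12.4%. The Col4a1 window lies wholly in exonic sequence of Col4a2, and the Col4a2 window in that of Col4a1. A match describes the letters only, and nothing here measured binding.

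Levels between genes were compared as CPM (counts scaled to a common library size) per kilobase of exon. By the median over the 24 libraries the order was Col4a1 at 152, Col4a2 at 131, Nid1 at 101, Lamb1 at 28.8, Lamc1 at 25.7, Lama4 at 20.4, Pxdn at 17.7, Lama2 at 2.25, Lama1 at 0.716 and Hmcn1 at 0.460 CPM per kb. The collagen IV chains and Nid1 thus stood well above the laminin chains. Col4a1 was above Col4a2 in 24 of 24 libraries, Lamc1 above Lama4 in 24 of 24 and Pxdn above Lama2 in 24 of 24, and only the ranges of Pxdn and Lama2 were apart. Other neighbours changed places between libraries, with Col4a2 above Nid1 in 13 of 24 and Lama1 above Hmcn1 in 13 of 24.

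Endothelial cells, a usual source of collagen IV and laminin, left little trace in these libraries. The 10 endothelial markers summed to 4.96 to 12.4 CPM, with 2 or 3 of the 10 at 0 in every library of a group, and the 6 epithelial markers to at most 2.88 CPM. Osteoblast markers (8 genes) summed to 20593 CPM or more in every library, and smooth muscle and pericyte markers, whose cells do make basement membrane, to 2434 to 5891 CPM. Of the 8 osteoblast markers, 2 in WT and 3 in HBM were under 1 CPM at day 0, so the day 0 sums rest on the others. Adipocyte markers went from 21.7 to 70.4 CPM at day 0 to between 291 and 1131 later. Macrophage markers went from 41.8 to 1253 CPM at day 0 to between 1613 and 11428 later. In bulk RNA, fewer cells of a type and less RNA per cell cannot be told apart, and the part of these cells in the results below was not tested. One library stood out: the WT culture of batch 19 at day 0 had the cartilage collagen Col2a1 at 15862 CPM, against at most 8774 elsewhere. It also had the lowest levels of Col4a1, Col4a2, Lama2, Lama4, Lamc1, Nid1 and Hmcn1 among all 24. High cartilage markers were not confined to it, as the 8 cartilage markers summed to up to 9048 CPM in the HBM day 0 libraries. The WT day 0 library of batch 19 is called the Col2a1-high library here. The main values from day 0 to day 10 in WT and between the genotypes at day 0 are given with and without it. The pools also differed in the female-specific RNA Xist, which was at most 0.0328 CPM in batch 21 and 279 to 528 CPM in batch 18. In batch 19 Xist was 18.0 to 41.7 CPM in WT but 177 to 246 CPM in HBM. By Xist, batch 19 therefore pairs pools of different makeup. The Y-linked gene Ddx3y did not separate the genotypes there, since WT libraries spanned 22.2 to 62.8 CPM and HBM libraries 33.5 to 48.1 CPM. Its ranges also overlapped in batch 21. In batch 18 they were apart, with WT libraries between 21.5 and 32.6 CPM and HBM libraries between 12.1 and 18.2 CPM. Xist and Ddx3y thus set the genotypes apart in different batches.

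**Figure D1:**
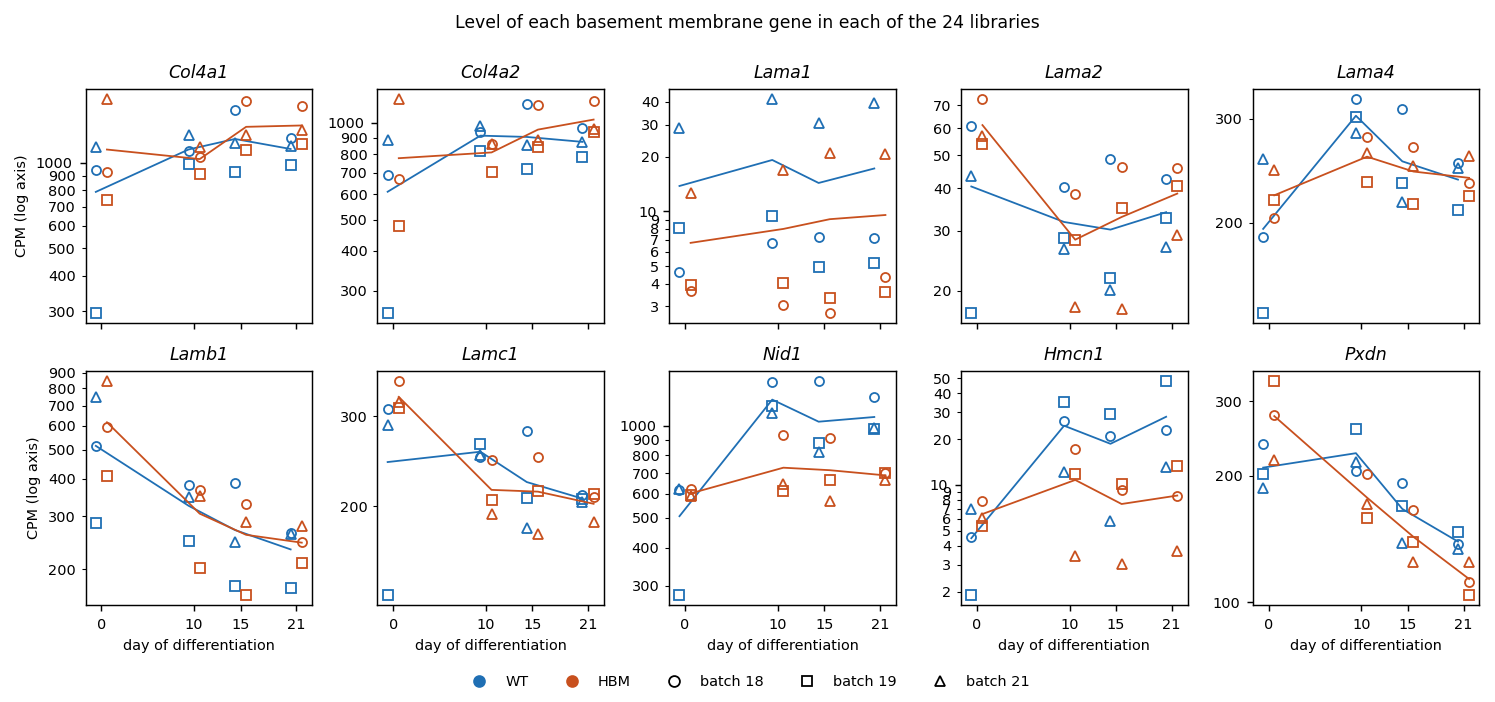
CPM (log axis) of each of the 10 genes against day of differentiation, for WT (blue) and HBM (orange), with 1 symbol per library, its shape giving the batch, and lines through the means of 3 libraries. Nid1 and Hmcn1 rose from day 0 to day 10 in WT, Pxdn fell in HBM, and Lama1 was separated by batch, with batch 21 between 12.6 and 41.4 CPM.

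The first question was how these genes change as the cultures start to differentiate, from day 0 to day 10. In WT cultures the nidogen Nid1, the hemicentin Hmcn1 and the laminin chain Lama4 rose. In HBM cultures the laminin chain Lamb1 and the peroxidasin Pxdn were called lower (adjusted p under 0.05), and none of the 10 higher. Below that threshold, Nid1 and Lama4 were higher at day 10 in 3 of 3 HBM cultures, and Lamb1 was lower in 3 of 3 WT cultures. Tests are edgeR's quasi-likelihood tests on all 24 libraries with Benjamini-Hochberg adjustment over 16592 genes. In WT 3 of 10 members passed, all higher, where 26.2% of all genes passed, 12.2% higher and 14.1% lower. In HBM 2 of 10 passed, both lower, where 26.5% of all genes passed, 14.1% higher and 12.4% lower. The median log2 change of the 10 members was 0.49 in WT and -0.03 in HBM, against -0.02 and -0.00 over all genes. Without the Col2a1-high library the WT median was 0.16, against 0.02 over all genes, with 7 of 10 members above 0 in place of 8. Whether the change differed between the genotypes was tested together with the later days, and no member passed, as given below.

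Nid1 (ENSMUSG00000005397, chr13:13437551-13512269), the glycoprotein that bridges laminin gamma 1 to collagen IV, had the clearest early change. Values here and below are CPM in the order batch 18, 19 and 21. For WT the day 0 libraries gave 616, 281 and 623 CPM, those of day 10 1385, 1162 and 1104, those of day 15 1397, 876 and 819 and those of day 21 1240, 978 and 985. The HBM levels were 620, 596 and 589 CPM (day 0), 931, 611 and 646 (day 10), 915, 664 and 569 (day 15) and 699, 702 and 665 (day 21). Every WT culture at day 10 was above every WT culture at day 0. By day 21 the WT cultures stood at 0.842 to 0.895 of their day 10 level, with 0 of 3 higher. They were still at 1.58 to 3.48 times their day 0 level. The log2 change in WT was 1.26 ± 0.27 (SE), or 2.40-fold (edgeR, adjusted p = 0.00241), and with the Col2a1-high library left out 0.97 (adjusted p = 0.00722). Leaving out any 1 library kept the edgeR adjusted p between 0.00177 and 0.0124, and Nid1 alone of the WT calls also passed without batch 18 (0.0307) and without batch 19 (0.0453). In HBM the log2 change was 0.28 ± 0.26 (edgeR, adjusted p = 0.461), higher in 3 of 3 cultures by up to 1.5 times.

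Hmcn1 (ENSMUSG00000066842, chr1:150562524-150993435, minus strand) encodes hemicentin, a very large extracellular protein of cell-matrix junctions. Among WT libraries, day 0 had 4.57, 1.90 and 6.95 CPM, day 10 26.1, 35.2 and 12.1, day 15 21.1, 29.0 and 5.76 and day 21 23.1, 48.0 and 13.0. HBM cultures held 7.89, 5.35 and 6.11 CPM on day 0, followed by 17.2, 11.8 and 3.43 (day 10), 9.32, 10.2 and 3.03 (day 15) and 8.46, 13.4 and 3.71 (day 21). The WT groups of day 0 and day 10 did not overlap, but the rise ran from 1.75 times in batch 21 to 18.5 times in batch 19. The log2 change in WT was 2.45 ± 0.72, or 5.47-fold (edgeR, adjusted p = 0.0184). The Hmcn1 call was lost on leaving out the Col2a1-high library (log2 2.09, edgeR adjusted p = 0.0688), the day 0 library of WT batch 18 (0.0521) or the day 10 library of WT batch 19 (0.0670). In HBM the log2 change was 0.74 ± 0.69 (edgeR, adjusted p = 0.451), with 2 of 3 cultures higher.

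Among the laminin alpha chains, Lama4 (ENSMUSG00000019846, chr10:38965515-39110188), the alpha chain of vessel, fat and muscle laminins, was the most abundant. It held 75.3% to 89.1% of the alpha chain level per kb in each of the 24 libraries. For WT the day 0 libraries gave 189, 141 and 256 CPM, those of day 10 323, 302 and 284, those of day 15 312, 233 and 217 and those of day 21 252, 210 and 247. The HBM levels were 204, 218 and 245 CPM (day 0), 279, 235 and 263 (day 10), 268, 215 and 249 (day 15) and 233, 222 and 259 (day 21). The 3 WT values of day 10 lay above those of day 0 and, again, above those of day 21. The WT log2 change to day 10 was 0.64 ± 0.17, or 1.55-fold (edgeR, adjusted p = 0.0125), and with the Col2a1-high library left out 0.45 (adjusted p = 0.0528). In HBM it was 0.22 ± 0.17 (edgeR, adjusted p = 0.378), higher in 3 of 3 cultures.

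Lama2 (ENSMUSG00000019899, chr10:26980036-27619758, minus strand) encodes the alpha chain of merosin, the laminin of muscle and Schwann cells. WT libraries of day 0 had 60.8, 17.3 and 43.3 CPM and those of day 10 40.4, 28.5 and 26.6. HBM libraries of day 0 had 72.9, 53.7 and 57.0 CPM and those of day 10 38.6, 28.2 and 18.0, so that the 2 HBM groups did not overlap. The HBM log2 change was -1.12 ± 0.43 (edgeR, adjusted p = 0.0620). With the culture (genotype and batch) as a block it was -1.19 ± 0.27 (edgeR, adjusted p = 0.00272). The WT log2 change was -0.35 ± 0.42 (edgeR, adjusted p = 0.575), and -0.71 (adjusted p = 0.220) without the Col2a1-high library. At days 15 and 21 Lama2 ranged from 17.7 to 48.8 CPM over the 12 libraries.

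The beta and gamma partners were both lower at day 10 than at day 0 in 3 of 3 HBM cultures. Lamb1 (ENSMUSG00000002900, chr12:31265234-31329644), the common laminin beta chain, had HBM levels of 596, 410 and 843 CPM (day 0), 366, 202 and 351 (day 10), 331, 165 and 286 (day 15) and 246, 210 and 280 (day 21). Among WT libraries, day 0 had 512, 285 and 746 CPM, day 10 380, 249 and 347, day 15 387, 177 and 248 and day 21 265, 173 and 261. Batch 19 was the lowest on each day in both genotypes, and each of the 6 cultures was lower at day 10 than at day 0. The HBM log2 change was -1.01 ± 0.37, or 0.497-fold (edgeR, adjusted p = 0.0497), a call at the threshold that was lost on leaving out any of 18 of the 24 libraries, with adjusted p up to 0.191. With the culture as a block the Lamb1 change passed in HBM (edgeR adjusted p = 0.00117) and in WT (log2 -0.60 ± 0.20, edgeR adjusted p = 0.0263). Without a block the WT change was -0.66, and -0.95 with the Col2a1-high library left out (edgeR adjusted p = 0.0684).

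Lamc1 (ENSMUSG00000026478, chr1:153218922-153332786, minus strand) encodes the gamma chain to which nidogen binds. HBM libraries of day 0 had 351, 311 and 320 CPM and those of day 10 246, 206 and 194, without overlap. WT libraries of day 0 had 310, 134 and 288 CPM and those of day 10 250, 265 and 252. At days 15 and 21 Lamc1 ranged from 177 to 280 CPM. The HBM log2 change was -0.61 ± 0.22 (edgeR, adjusted p = 0.0506), and with the culture as a block it passed (log2 -0.61 ± 0.20, edgeR adjusted p = 0.0247). With the Col2a1-high library left out, which enters this comparison only through the shared spread, the edgeR adjusted p for HBM was 0.00387. In WT the Lamc1 change without a block was 0.07, and -0.23 with that library left out (edgeR adjusted p = 0.314). With the culture block 4 of 10 members were called lower in HBM (Lama2, Lamb1, Lamc1 and Pxdn), where 17.7% of all genes were, and in WT 3 higher and 1 lower, where 19.7% were higher and 18.8% lower. Without any test, the later HBM group lay below the earlier for these 4 members, as for 19.6% of genes, and the later WT group above for Lama4, Nid1 and Hmcn1, as for 17.3%. Leaving batches out of this blocked fit changed the WT calls most: 1 member passed without batch 18, 5 without batch 21 and 6 without the Col2a1-high library. Over all genes those fits called, in the same order, 2429 of 16581, 5955 of 16656 and 6470 of 16860.

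Pxdn (ENSMUSG00000020674, chr12:29937608-30017658), the heme peroxidase that forms the sulfilimine crosslinks of collagen IV, fell in HBM cultures. HBM cultures held 278, 335 and 217 CPM on day 0, followed by 201, 159 and 172 (day 10), 166, 139 and 125 (day 15) and 112, 104 and 125 (day 21). For WT the day 0 libraries gave 237, 202 and 187 CPM, those of day 10 205, 257 and 215, those of day 15 192, 170 and 138 and those of day 21 138, 147 and 134. The HBM groups stepped down at each sampled day by their means, while WT was lower only after day 10. The HBM log2 change to day 10 was -0.64 ± 0.16, or 0.641-fold (edgeR, adjusted p = 0.00722), and the adjusted p stayed under 0.05 on leaving out any 1 library. On leaving out a whole batch the Pxdn call was lost without batch 18 (log2 -0.74, edgeR adjusted p = 0.0620) or batch 19 (log2 -0.40, adjusted p = 0.205), the second also in the fit blocked by culture (edgeR adjusted p = 0.1003). In WT it was 0.11 ± 0.16 (edgeR, adjusted p = 0.630), and 0.09 without the Col2a1-high library.

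Col4a1, with Col4a2 the chain of the most widespread collagen IV, had WT levels of 941, 296 and 1135 CPM (day 0), 1099, 993 and 1256 (day 10), 1536, 933 and 1177 (day 15) and 1225, 987 and 1149 (day 21). The HBM levels were 930, 738 and 1678 CPM (day 0), 1048, 914 and 1136 (day 10), 1660, 1113 and 1250 (day 15) and 1589, 1169 and 1310 (day 21). The day 0 groups were the widest, since batch 21 was high and batch 19 low in both genotypes. The log2 change to day 10 was 0.50 ± 0.36 in WT (edgeR, adjusted p = 0.319) and -0.11 ± 0.36 in HBM (0.842), and without the Col2a1-high library the WT value was 0.10. Col4a2 ranged from 256 to 1185 CPM and gave 0.58 ± 0.34 in WT (edgeR, adjusted p = 0.215), 0.21 without that library, and 0.06 ± 0.34 in HBM (0.914). Lama1 (ENSMUSG00000032796, chr17:67697259-67822647), the alpha chain of early embryonic laminin, gave log2 changes of 0.48 ± 1.08 in WT, 0.21 without that library, and 0.26 ± 1.09 in HBM, with errors larger than the changes.

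**Figure D2:**
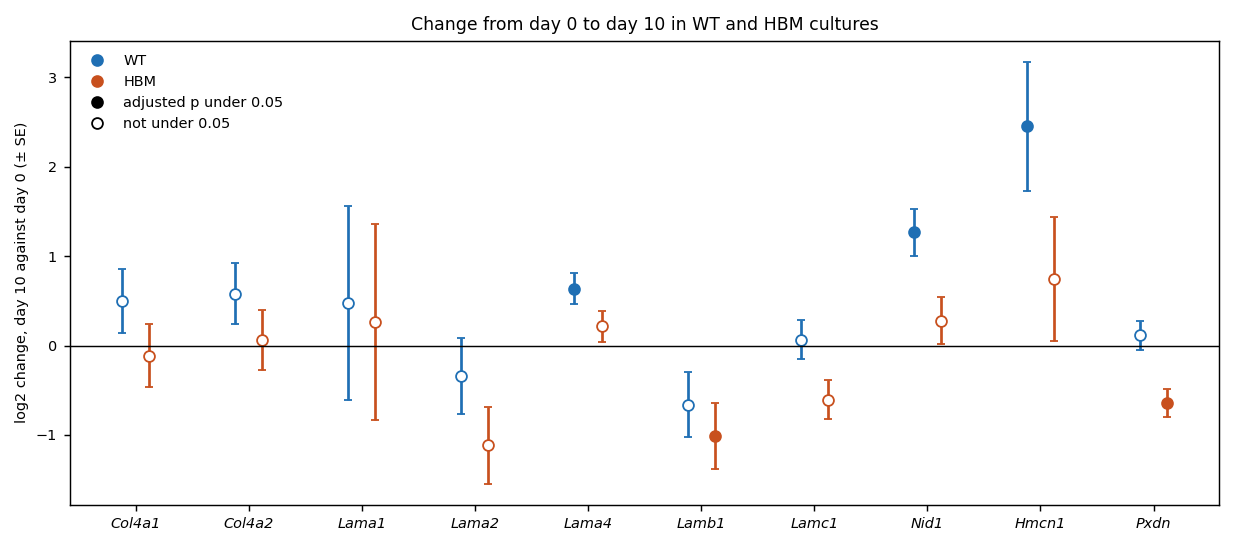
Log2 change from day 0 to day 10 with its standard error for each gene, in WT (blue) and HBM (orange), from edgeR, with filled points for an adjusted p under 0.05. Nid1, Hmcn1 and Lama4 are filled in WT, Lamb1 and Pxdn in HBM, and Lama1 carries the widest errors, 1.08 in WT.

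Ratios of partner genes were compared within cultures, which removes what a whole library has in common. Between day 0 and day 10 the ratio of Lama4 to Lama2 was higher in 6 of 6 cultures, by a mean log2 of 1.13 ± 0.48 (SD). The ratio of Nid1 to its laminin partner Lamc1 was higher in 6 of 6 cultures, by 1.03 ± 0.28. The ratio of Lamb1 to Lamc1 was lower in 6 of 6 cultures, with a mean log2 change of -0.56 ± 0.41. Each of the 3 gave p = 0.03125 in a two-sided exact sign-flip permutation test over 6 cultures, the smallest value 6 cultures allow, and 0.0417 after adjustment over the 4 ratios. WT and HBM cultures of the same batch deviated together, so the 6 are not fully independent. With the 3 batch means as units, an alternative added after the data were seen, the direction held in 3 of 3 batches for each of these 3 ratios, with exact permutation p = 0.25, the smallest that 3 batches allow, so none passed. The ratio of Col4a1 to Col4a2 did not pass, with a mean log2 change of -0.12 ± 0.13 (exact permutation p = 0.125). The direction of that ratio was also shared by 3 of 3 batch means, but not by all cultures, with 2 of 6 higher. Per kb, Col4a1 stood at 1.08 to 1.29 times Col4a2 as group means over all 8 groups.

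Per kb, Nid1 went from 2.48 ± 0.11 (SD, n = 3) times Lamc1 at day 0 to 5.68 ± 0.80 at day 10 in WT, and from 2.19 ± 0.09 to 4.01 ± 0.49 in HBM. At day 10, 15 and 21 the WT ratios, at 5.03 to 7.01, lay above every HBM ratio, at 3.53 to 4.51. The groups were already apart at day 0, with WT at 2.37 to 2.58 and HBM at 2.10 to 2.28. The values of later days come from the same 3 cultures of each genotype and are not independent. The genotype difference in this ratio was not tested, and how often ratios of other genes are apart in this way was not counted. Lamb1 shared the beta chains with Lamb2, the beta chain of muscle and kidney laminins. Its share of the beta chain level per kb was 48.4% ± 8.64 (SD, n = 3) in WT and 56.2% ± 7.59 in HBM at day 0, and 26.9% ± 5.73 and 27.7% ± 5.89 at day 21. Nid1 held 46.3% to 69.0% of the nidogen level against Nid2.

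**Figure D3:**
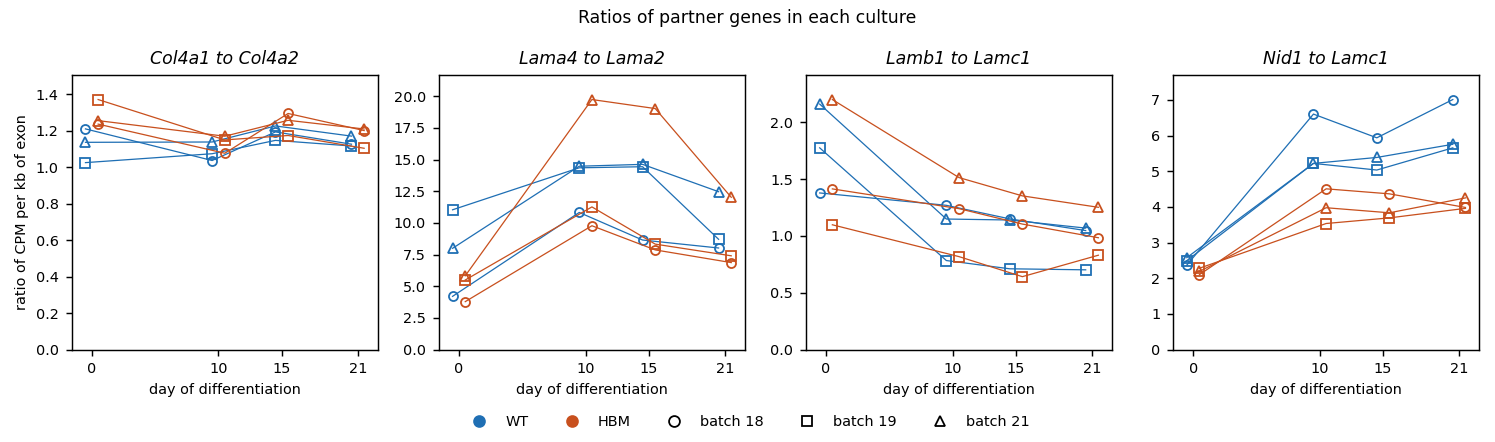
Ratio of CPM per kb of exon for 4 pairs of partner genes against day, with a line for each of the 6 cultures (WT blue, HBM orange, symbol by batch). Lama4 to Lama2 and Nid1 to Lamc1 go up from day 0 to day 10 in 6 of 6 cultures, Lamb1 to Lamc1 goes down in 6 of 6, and Col4a1 to Col4a2 stays near 1.08 to 1.29 as group means.

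From day 10 to day 21 none of the 10 members passed in either genotype. Across all genes 0 passed as well, 0% in WT and 0% in HBM, with 707 and 535 at an unadjusted p under 0.05. Pxdn came closest, with a log2 change of -0.70 ± 0.16 in WT (edgeR, adjusted p = 0.534) and -0.64 ± 0.16 in HBM (adjusted p = 1), lower in 3 of 3 cultures of each. DESeq2 called it in WT (adjusted p = 0.0396), where it called 18 genes or 0.109%, and with the culture as a block edgeR gave 0.0551. The day 21 values of Pxdn lay below those of day 10 without overlap in both genotypes, which held for 6.97% of genes in WT and 7.02% in HBM. In WT, Lama4 and Lamc1 also lay below day 10 without overlap, which makes 3 of 10 members there and 1 of 10 in HBM. Col4a1 and Col4a2, 2 of 10 members, at day 21 lay above day 10 in HBM without overlap, which held for 4.60% of genes. The log2 changes of the 9 members other than Pxdn ran from -0.48 (Lamb1) to 0.20 (Hmcn1) in WT and from -0.34 (Hmcn1) to 0.45 (Lama2) in HBM.

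The second question was how HBM cultures differ from WT on the same day. With no block, no member passed on any day, nor did any other gene: 0% of 16592 genes passed on each of the 4 days, with 701, 476, 347 and 356 genes at an unadjusted p under 0.05 at days 0, 10, 15 and 21. DESeq2 called 0, 2, 0 and 1 genes (0%, 0.0121%, 0% and 0.00603%), none of them a member. The labels' batch numbers pair the cultures, and a fit with a batch term for each day is therefore given beside it. In this paired fit Lama1 and Hmcn1 were lower in HBM at day 10, where 1.31% of genes passed, 0.639% of all genes lower, and Hmcn1 at day 21, where 0.241% passed, 0.0844% lower. No member passed at day 0 (0.127% of genes) or day 15 (0.331%).

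Hmcn1 was lower in HBM in 9 of 9 same-batch pairs from day 10 on, with HBM at 0.280 to 0.658 of the WT level. Of all genes, 6.73% were lower in all 9. At day 10 the log2 difference was -1.18 ± 0.69 without pairing (edgeR, adjusted p = 1) and -1.31 ± 0.26, or 0.403-fold, in the paired fit (edgeR, adjusted p = 0.0383). At day 15 the paired value was -1.23 ± 0.27 (edgeR, adjusted p = 0.0689) and at day 21 -1.70 ± 0.27, or 0.308-fold (adjusted p = 0.0298). The groups still overlapped on each day, because WT batch 21 lay within the HBM range. At day 0 Hmcn1 was higher in HBM in 2 of 3 pairs. Without batch 18, 19 or 21 the paired day 21 difference was -1.84, -1.62 or -1.63, and its edgeR adjusted p 0.123, 0.0655 or 0.104. At day 10 the adjusted p without those batches was 0.0855, 0.233 or 0.171. Fits on 2 batches have fewer cultures, and neither Hmcn1 call passed in any of them.

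Lama1 was lower in HBM in 12 of 12 same-batch pairs, at 0.384 to 0.780 of the WT level, a pattern that 1.87% of genes had. The 12 are the same 3 pairs of cultures on 4 days and are not independent. Among WT libraries, day 0 had 4.66, 8.10 and 28.6 CPM, day 10 6.71, 9.44 and 41.4, day 15 7.21, 4.97 and 30.8 and day 21 7.15, 5.18 and 39.3. HBM cultures held 3.63, 3.92 and 12.6 CPM on day 0, followed by 3.07, 4.03 and 16.9 (day 10), 2.77, 3.34 and 21.1 (day 15) and 4.37, 3.60 and 20.7 (day 21). Batch 21 was above the other batches on every day in both genotypes, and HBM batch 21 lay above WT batches 18 and 19, so the unpaired groups overlapped. At day 10 the paired log2 difference was -1.22 ± 0.17, or 0.429-fold (edgeR, adjusted p = 0.0138), against -1.26 ± 1.10 without pairing (adjusted p = 1). Without batch 18, 19 or 21 that edgeR adjusted p was 0.0209, 0.128 or 0.136. Batch 21 is also the batch with Xist near 0, and the part of sex makeup in the Lama1 level was not tested. On the other days the paired value ran from -0.89 to -0.74 (edgeR, adjusted p = 0.0967, 0.0689 and 0.0987 at days 0, 15 and 21).

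Nid1 was lower in HBM in 9 of 9 pairs from day 10 on, at 0.526 to 0.758 of WT, while at day 0 it was at 620, 596 and 589 CPM in HBM against 616, 281 and 623 in WT. At days 10 and 21 the groups did not overlap. The paired log2 difference was -0.76 ± 0.18 at day 10 (edgeR, adjusted p = 0.0658), -0.51 ± 0.18 at day 15 (0.232) and -0.62 ± 0.18 at day 21 (0.144), and without pairing its unadjusted p was 0.0120, 0.0616 and 0.0275. Pxdn was also lower in 9 of 9 later pairs, at 0.618 to 0.981 of WT, after being higher in 3 of 3 pairs at day 0. Its paired log2 differences were 0.39 ± 0.13, -0.35 ± 0.13, -0.22 ± 0.13 and -0.30 ± 0.13 at days 0, 10, 15 and 21 (edgeR, adjusted p = 0.281, 0.222, 0.556 and 0.330). At day 10, 4 of 10 members (Lama4, Lamc1, Nid1 and Pxdn) were lower in HBM without overlap of the groups, against 5.71% of genes, and at day 21, 2 of 10 (Nid1 and Pxdn), against 5.09%.

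The paired calls at later days also moved with the Col2a1-high library, which belongs to day 0, since all days share 1 estimate of the spread per gene. With it left out, a setting chosen after the data were seen, edgeR called Hmcn1, Nid1 and Lama1 lower at day 10, with edgeR adjusted p = 0.0157, 0.00603 and 0.00755, where 5.34% of genes passed and 2.67% were lower. At day 15 it called the same 3, with edgeR adjusted p = 0.0326, 0.0302 and 0.0454, where 0.801% of genes were lower. At day 21 it called Hmcn1 and Nid1, with edgeR adjusted p = 0.0180 for both, where 0.824% were lower. At day 0 it called no gene (0%). The differences themselves moved little, with Nid1 at day 10 at -0.76 in both fits.

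For the other members the paired differences at days 10 to 21 were small. Those of Col4a1 were -0.11 ± 0.17, 0.15 ± 0.17 and 0.27 ± 0.17, those of Lamb1 -0.11 ± 0.11, -0.04 ± 0.11 and 0.09 ± 0.11, and those of Lama4 -0.23 ± 0.12, -0.05 ± 0.12 and 0.01 ± 0.12 at days 10, 15 and 21. Those of Col4a2 were -0.18 ± 0.13, 0.09 ± 0.13 and 0.23 ± 0.13, those of Lama2 -0.21 ± 0.23, 0.14 ± 0.23 and 0.18 ± 0.23, and those of Lamc1 -0.26 ± 0.16, -0.05 ± 0.16 and -0.04 ± 0.16. At day 0, 9 of 10 members were higher in HBM, with a median log2 difference of 0.38 against -0.04 over all genes. Without the Col2a1-high library 6 of 10 were higher, with a median of 0.05 against 0 over all genes. On leaving it out Col4a1 went from 0.50 to 0.10, Nid1 from 0.25 to -0.04 and Lamc1 from 0.42 to 0.13, while Pxdn went from 0.41 to 0.38. Only Lamc1 lay above WT in HBM without overlap at day 0, as did 1.48% of genes, and at day 15 no member's groups were apart, against 8.78% of genes in either direction. At day 10 the median over the 10 members was -0.24 against 0.00 over all genes, and 10 of 10 were lower in HBM.

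**Figure D4:**
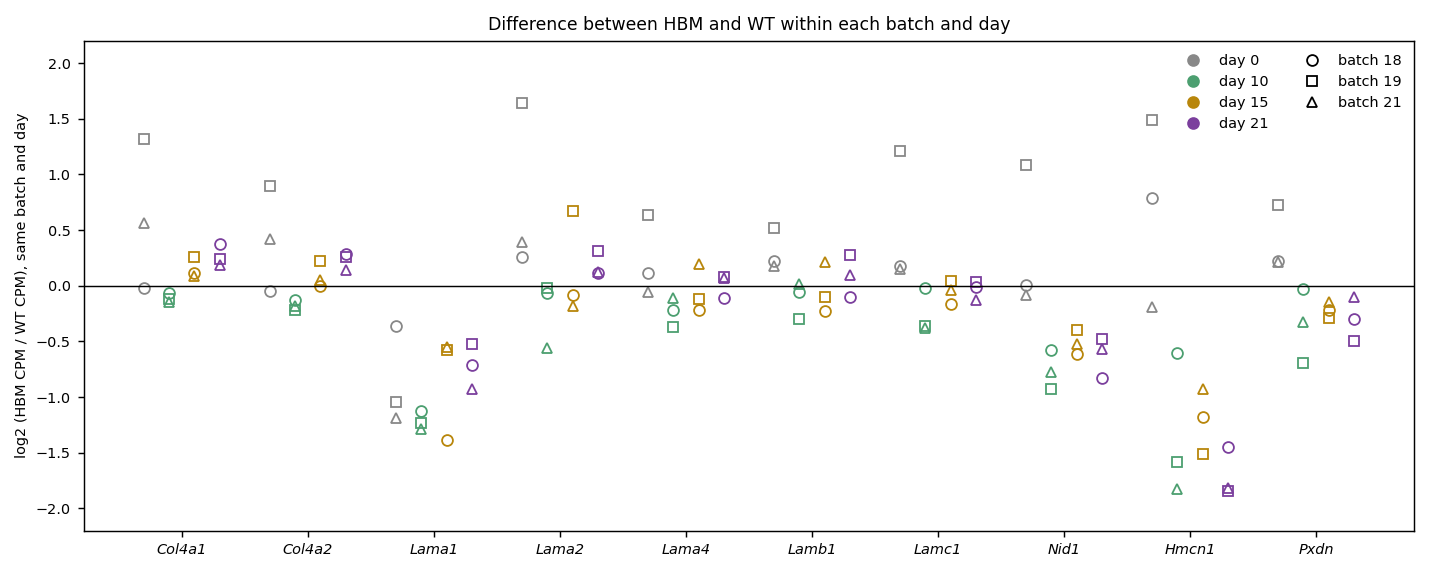
Log2 ratio of HBM to WT CPM within each batch and day (colour by day, symbol by batch) for the 10 genes. Lama1 lies below 0 in 12 of 12 pairs and Nid1, Hmcn1 and Pxdn in 9 of 9 from day 10 on, and the day 0 squares of batch 19 lie high for most genes.

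Levels of other markers are given for the same days, without a test of their part in these values. At day 10 the 8 osteoblast markers ranged from 29829 to 52297 CPM in sum in WT and from 44085 to 96526 in HBM. There 8 of 8 were higher in HBM, with a median log2 difference of 1.18 against 0.00 over all genes. In the paired fit 4 of 8 passed as higher, where 0.669% of all genes did. The sum of the 8 cartilage markers ranged from 993 to 4219.8 CPM in WT and from 750.0 to 1625 in HBM. Adipocyte markers had values above WT in HBM for 9 of 10 genes at day 10 (median log2 difference 1.01) and below WT for 10 of 10 at day 21 (-1.20). Macrophage markers were below WT for 10 of 10 genes at day 21 (-0.45). Over all genes the median was 0.00 at day 10 and -0.01 at day 21. None of these adipocyte or macrophage differences passed, without a block or in the paired fit. With the counts of a culture summed over its days no member passed, in edgeR without a block (555 genes at an unadjusted p under 0.05) or with the batch as a block, where Lama1, Hmcn1 and Nid1 had adjusted p = 0.0582, 0.0718 and 0.0767. No gene of the 18387 tested on these sums passed in either fit (0%), and DESeq2 called 25 (0.136%), none of them a member.

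Whether the genotype difference changed with day was tested over all 4 days with 3 degrees of freedom. No member and no gene passed (0%), with 103 genes at an unadjusted p under 0.05. Pxdn had the lowest unadjusted p of the members, 0.0124, and Nid1 followed with 0.0641 (edgeR, adjusted p = 1 for both). With the culture as a block these were 0.00996 and 0.0105 (edgeR, adjusted p = 1 for both). The early rise of Nid1, Hmcn1 and Lama4 in WT and the early fall of Pxdn and Lamb1 in HBM are therefore not shown to differ between the genotypes.

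Across the 24 libraries the log2 levels of Col4a1 and Col4a2 correlated at r = 0.98, those of Lama2 and Lamc1 at 0.83, those of Nid1 and Hmcn1 at 0.80 and those of Lama1 and Lama2 at -0.49. These values are descriptions, as the libraries share days, cultures and batches. Within days 10 to 21 (18 libraries) the same pairs gave 0.95, 0.61, 0.72 and -0.63. Among 10989 genes the nearest to Col4a1 were Col4a2 (0.98), Srpk2 (0.92), Hecw2 (0.91), Pcdhgc3 (0.91) and Ccser2 (0.90). The nearest to Lama2 were Eif2s3x and the microfibril gene Fbn1 (both 0.89), Ank2 (0.89), Socs5 (0.88) and Lrrc8b (0.87).

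Of 28 other basement membrane components, 26 were tested. From day 0 to day 10, 7 rose and 2 fell in WT, and 9 rose and 2 fell in HBM, where 12.2% and 14.1% of all genes rose and 14.1% and 12.4% fell. The median log2 changes were 0.60 and 0.51. Blocking by culture moved the calls to 10 that rose and 5 that fell for WT, and to 11 and 7 for HBM, where 19.7% and 20.5% of all genes were higher and 18.8% and 17.7% lower. Fras1, a protein of the epithelial-dermal junction, rose 11.8-fold in WT and 9.02-fold in HBM. Smoc1, a calcium-binding matricellular protein, rose 7.74-fold and 8.61-fold, and Npnt, the nephronectin ligand of integrin alpha 8 beta 1, 6.42-fold and 5.99-fold. Fbln2, a fibulin, fell to 0.223 and 0.207 of its day 0 level. The edgeR adjusted p for these 8 changes ran from 0.000117 to 0.0299. Between the genotypes 0 of 26 passed on any day, in the fit without a block (0% of genes) and in the paired fit.

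Of 15 receptors, all tested, 4 rose and 2 fell in WT and 3 rose and 2 fell in HBM, with median log2 changes of 0.22 and 0.10, where 26.2% and 26.5% of all genes passed. The laminin receptor chain Itgb4 rose 2.60-fold and 2.23-fold and Itga2, the alpha chain of a collagen and laminin receptor, 6.65-fold and 3.06-fold in WT and HBM. Sspn, the sarcospan of the dystroglycan complex, rose 1.89-fold and 1.76-fold. Itga3 fell to 0.297 and 0.233 of its day 0 level and Itgb1, the common beta chain, to 0.740 and 0.675. Between the genotypes 0 of 15 passed without a block. The paired fit called 2 collagen-binding alpha chains lower in HBM at day 10, where it called 0.639% of all genes lower. Itga1 stood at 0.513 of WT (edgeR, adjusted p = 0.0173) and Itga2 at 0.399 (adjusted p = 0.0463).

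A list of 22 genes for folding, crosslinking and turnover of collagen, not specific to collagen IV, was also examined. By day 10 its median log2 change was -0.12 in WT and 0.20 in HBM. All 22 were tested, and 1 rose and 2 fell in WT and 4 rose and 3 fell in HBM, beside the same shares of all genes. Blocking by culture moved these to 2 that rose and 4 that fell for WT, and to 7 and 3 for HBM. In that fit 19.7% and 20.5% of all genes were higher and 18.8% and 17.7% lower. The gelatinase Mmp9, a gene that macrophages and osteoclasts also express, rose 24.8-fold and 20.3-fold. With it 6 of 10 macrophage markers rose in each genotype, where 12.2% of all genes rose in WT and 14.1% in HBM. The part of macrophages in the Mmp9 change was not tested. Loxl2, which crosslinks collagen IV, fell to 0.327 and 0.371 of its day 0 level and the lysyl hydroxylase Plod3 to 0.580 and 0.691. In HBM the prolyl 3-hydroxylase partner Crtap rose 2.13-fold and the prolyl 4-hydroxylase P4ha2 2.37-fold, and Plod2 fell to 0.597. Between the genotypes 0 of 22 passed without a block, with 18 of 22 higher in HBM at day 10. Their median log2 difference was 0.23, against 0.00 over all genes. The paired fit called the prolyl hydroxylases P4ha1 (2.51-fold, edgeR adjusted p = 0.0391) and P3h2 (2.14-fold, adjusted p = 0.0442) higher in HBM at day 10. It called 0.669% of all genes higher on that day. P4ha1 spread from 190.2 to 1143 CPM among the 3 HBM cultures there, and P3h2 from 3.31 to 14.2.

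Exons of 4 members overlap an antisense gene: Gm15419 over 43 bases of Col4a2, Gm48084 over 631 of Lama2, Gm48682 over 143 of Nid1 and Gm20631 over 399 of Hmcn1. The strand setting of the counting is unknown here, so reads of these stretches cannot be assigned to a strand. No library had more than 5 counts for any of these antisense genes.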

How the data were processed

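Polyadenylated RNA was sequenced in 24 libraries, per the labels, read as 6 cultures on 4 days. Tools named in the submitters' processing notes are STAR 2.7.8a, cutadapt 3.4 and featureCounts (Subread 2.0.1), with the build mm10. The deposited values are raw counts per Ensembl gene. Annotation release and strand setting stay unstated, not given in the sources used here. Of 54232 rows, 54164 matched GENCODE M21 (GRCm38), which gave symbols, coordinates and exon lengths.

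Counts were tested in R 4.3.3 with edgeR 4.0.16 (quasi-likelihood, TMM factors 0.866 to 1.11, filterByExpr, 8 groups, adjusted p under 0.05). CPM use the TMM library size. Counts summed over the 4 days of a culture left 18387 genes. Alternatives were DESeq2 1.42.0, other scaling and filters, blocks, fewer libraries and each library left out. On simulated counts the scripts were checked against known changes. Correlations use log2(CPM + 0.5) and, for likeness, genes of mean CPM at least 5.

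The labels give each batch once per genotype and day. Same-batch WT and HBM libraries deviated together (r of 0.542 to 0.815, the highest in 12 of 12 cases, with pairs of different batches at most 0.127), so the numbers pair the cultures. Unblocked, edgeR's biological coefficient of variation came to 0.327, and with a batch term per day (the paired fit) to 0.131. Fits without a culture block treat the days of 1 culture as independent, which they are not. Intervals of counting error would understate the error between cultures and are not given.

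The members, lists and tests were chosen with earlier results of these data known. All 10 members enter each comparison, with values or, for those that did not pass, ranges and counts. From each list up to 3 genes per direction are named, by unadjusted p among those passing, and the 5 genes most like Col4a1 and Lama2. Some results of the lists are not reported here.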

Additional observations from a re-analysis of the deposited data

Results flagged for a closer look

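For 5 members the same-batch pairs all lay one way on 1 day and all the other way on another. The share of all genes that did so was not counted, so this count has no baseline. The mean log2 difference of HBM against WT over the 3 pairs was -0.11 for Col4a1 at day 10, against 0.15 at day 15 and 0.27 at day 21. For Col4a2 it was -0.18 at day 10 and 0.23 at day 21. For Lama2 it was 0.77 at day 0, -0.22 at day 10 and 0.18 at day 21, and for Lamc1 0.52 at day 0 and -0.26 at day 10. Pxdn gave 0.39 at day 0 and -0.35, -0.22 and -0.30 at days 10, 15 and 21. In the batch 19 pair, which holds the Col2a1-high library, the day 0 difference was 1.64 for Lama2, 1.21 for Lamc1 and 0.73 for Pxdn. In batches 18 and 21 it was 0.26 and 0.40 for Lama2, 0.18 and 0.15 for Lamc1, and 0.23 and 0.22 for Pxdn. Without that library the unpaired edgeR difference at day 0 was 0.23 for Lama2, 0.13 for Lamc1 and 0.38 for Pxdn. The test of a change of the difference with day (edgeR, 3 degrees of freedom) gave an adjusted p of 1 for each of these 5 genes, so a change with day was not shown.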

How the results depend on the processing

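Of 3100 values of a member under an alternative, 3013 kept their side of the threshold, 42 lost a call and 45 gained one. No called value changed sign. Most of the 3100 belong to members not called in the main fit, which had no call to lose. Only the 3 WT and 2 HBM calls from day 0 to day 10 could lose theirs. These gave 15 of the losses in WT and 27 in HBM, so the share kept does not measure how stable the calls are. Counts of members called follow. Between the genotypes no member was called without a replicate block under any alternative run. With the block of a batch term for each day the count was 2 at day 10 and 1 at day 21. Without batch 18 that block gave 1 at day 0 and 1 at day 10, beside 56 and 43 genes of all tested. Without batch 19 it gave 1 at day 21, beside 56 genes. Less the Col2a1-high library it gave 3, 3 and 2 at days 10, 15 and 21, beside 901, 324 and 290 genes. The fits on fewer libraries with a block were chosen after seeing the data. For WT from day 0 to day 10 (3 called), the count was 0 with only the libraries compared, 1 without batch 18 or batch 19, and 1 to 3 on leaving out 1 library. With the culture as block it was 1 without batch 18, 5 without batch 21 and 6 less the Col2a1-high library, beside 2429, 5955 and 6470 genes. For HBM (2 called), it was 1 with RLE size factors, no low-count filter, only the libraries compared, or without batch 19 or 21, and 0 without batch 18. It was 4 with DESeq2, with 1 batch term for all days and with the culture as block, with or without the Col2a1-high library, and 1 to 4 on leaving out 1 library. Of all genes, DESeq2 called 30.7% in that HBM comparison and the culture block 38.2%. Less the Col2a1-high library the culture block called 47.3%. From day 10 to day 21, 1 member was called in WT by DESeq2, by 1 batch term for all days and by the culture block less the Col2a1-high library. DESeq2 called 0.109% of all genes there, and the culture block less that library 1.74%. The block changed no other call beyond those given here and in the report.

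Over all genes, calls from day 0 to day 10 numbered 4349 in WT and 4404 in HBM, but 472 and 2087 with only the libraries compared. They numbered 794 and 1065 without batch 18, 2236 and 2647 without batch 19, and 4574 and 3776 without batch 21. On leaving out 1 library they ran from 2866 to 5484 in WT and from 2809 to 5596 in HBM. The genotype calls, 0 at each day, became 21, 217, 55 and 40 with a batch term for each day, and those from day 10 to day 21, 0 in each genotype, became 92 and 16 with the culture as block. Leaving out 1 culture kept the direction of the log2 ratio changes, with ranges of 1.001 to 1.28 for Lama4 to Lama2, -0.65 to -0.44 for Lamb1 to Lamc1 and 0.93 to 1.10 for Nid1 to Lamc1, but 5 cultures cannot reach the threshold. With batch means as units, added after seeing the data, the values stayed 1.13, -0.56 and 1.03, each with an adjusted exact permutation p of 0.25. The edgeR p-values use 1 estimate of the spread per gene over all groups and days in a fit, with at most 3 cultures a group. Without a culture block, days of 1 culture count as independent in them. Whether depth limits these comparisons was not tested.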
